A study of Mus musculus with 6 samples.

Results

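The genes of cholesterol and fatty acid synthesis were compared between untreated EpRas tumor cells and EpRas cells in a long-term epithelial–mesenchymal transition (EMT). The EpRas line derives from EpH4, a mammary epithelial line of BALB/c mouse background, by stable overexpression of the Ha-Ras oncogene, so every group carries this oncogene and the study rests on 1 cell line. RNA of 3 untreated samples (control) was set against RNA of 3 samples given TGF-β1 at 2 ng/ml over 14 days (long-term EMT), each on its own MoGene-1_1-st-v1 array. All cells grew in DMEM/F12 medium with fetal calf serum and were seeded again before lysis. A list of 32 genes was taken by symbol from the known pathways, 23 for cholesterol and 9 for fatty acids, by a rule that uses no measured value, although earlier results of these data were known. Of these, 31 had a probe set that names them alone, among 18820 genes that did, and no probe set named only *Acat2*, the cytosolic thiolase that feeds the mevalonate pathway, which was not analysed here.

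Cholesterol is built from acetyl-CoA. The mevalonate enzymes (*Hmgcs1*, *Mvk*, *Pmvk*, *Mvd*, *Idi1*, *Fdps*) make farnesyl diphosphate, *Fdft1* and *Sqle* turn it into squalene and its epoxide, *Lss* closes the first sterol ring system, and a series from *Cyp51* to *Dhcr7* trims lanosterol to cholesterol. The transcription factors SREBP-1 (*Srebf1*) and SREBP-2 (*Srebf2*) drive most of these genes. When sterols are low, *Scap* carries the SREBPs from the endoplasmic reticulum to the Golgi, where they are cut free, and *Insig1* holds the complex back when sterols are plentiful. Fatty acids start from citrate through *Acly*, *Acaca* and *Fasn*, and are then lengthened by elongases (*Elovl5*, *Elovl6*) and desaturated by *Scd1*, *Scd2*, *Fads1* and *Fads2*. Mammary epithelium makes milk fat through this pathway, and many tumors use it to build membranes.

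The stretches before the gene starts are shown for the 1 gene that rose (*Hsd17b7*), for the enzymes that act just before and after it on sterols and did not pass the test (*Nsdhl* and *Ebp*), for *Hmgcs1*, where the pathway starts, and for *Elovl6*, the fatty acid gene with the lowest difference by value. They are 250 bases upstream of the RefSeq start in GRCm38.p6, written 5′ to 3′ on the gene's strand, at chr1:169969206-169969455 (minus) for *Hsd17b7*, chrX:72918271-72918520 (plus) for *Nsdhl*, chrX:8193513-8193762 (minus) for *Ebp*, chr13:119690101-119690350 (plus) for *Hmgcs1* and chr3:129532136-129532385 (plus) for *Elovl6*. Capitals mark CCAAT on either strand (ATTGG on the other), the box bound by the SREBP partner NF-Y, and, in *Hmgcs1* alone, a match to TCACNCCAC, letters of a sterol regulatory element.
Hsd17b7: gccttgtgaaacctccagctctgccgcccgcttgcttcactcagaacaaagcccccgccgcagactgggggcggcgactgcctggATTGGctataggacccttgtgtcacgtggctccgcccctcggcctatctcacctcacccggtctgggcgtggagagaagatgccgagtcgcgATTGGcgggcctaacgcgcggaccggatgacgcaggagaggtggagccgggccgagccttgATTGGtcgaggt
Nsdhl: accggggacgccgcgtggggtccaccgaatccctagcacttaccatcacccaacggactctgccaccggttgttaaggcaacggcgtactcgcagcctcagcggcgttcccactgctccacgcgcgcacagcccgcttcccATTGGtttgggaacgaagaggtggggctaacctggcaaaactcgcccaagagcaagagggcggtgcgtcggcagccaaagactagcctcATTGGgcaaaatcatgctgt
Ebp: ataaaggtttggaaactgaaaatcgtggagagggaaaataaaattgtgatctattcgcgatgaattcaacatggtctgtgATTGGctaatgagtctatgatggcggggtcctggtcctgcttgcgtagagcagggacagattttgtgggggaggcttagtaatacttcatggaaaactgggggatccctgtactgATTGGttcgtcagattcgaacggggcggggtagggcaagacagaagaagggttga
Hmgcs1: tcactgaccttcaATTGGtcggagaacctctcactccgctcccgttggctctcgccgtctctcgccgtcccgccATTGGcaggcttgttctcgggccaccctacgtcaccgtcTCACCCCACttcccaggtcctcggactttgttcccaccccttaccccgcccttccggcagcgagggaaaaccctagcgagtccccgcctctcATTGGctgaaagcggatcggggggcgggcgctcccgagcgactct
Elovl6: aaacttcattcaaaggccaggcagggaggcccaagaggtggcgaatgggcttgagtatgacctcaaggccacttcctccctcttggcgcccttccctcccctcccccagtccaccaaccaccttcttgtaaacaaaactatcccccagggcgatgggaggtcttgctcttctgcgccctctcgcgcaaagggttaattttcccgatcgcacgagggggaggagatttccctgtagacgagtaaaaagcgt

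In *Hsd17b7* CCAAT matches began 165, 73 and 12 bases before the start, in *Nsdhl* 109 and 20, in *Ebp* 170 and 55, and in *Hmgcs1* 237, 176 and 45, with the TCACCCCAC match at 137 and no overlap between them. *Elovl6* had no match to these letters. Of the 32 listed genes 25 were in the promoter table, with 31 stretches. CCAAT was in 18 of 25 stretches of the cholesterol genes (72.0%), in 2 of 6 of the fatty acid genes (33.3%) and in 33.8% of all 32851 stretches in the table. The GC box GGGCGG, on either strand, was in 20 of 25 stretches of the cholesterol genes (80.0%), in 2 of 6 of the fatty acid genes (33.3%) and in 32.7% of all. TCACNCCAC was in 1 of the members' and in 1.05% of all. These are matches of letters, with no allowance for base composition, and no binding was measured.

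The arrays held 35556 probe sets with log2 values from the Robust Multi-array Average (RMA), between 1.99 and 14.03. Background was set at 4.48, below which 95% of 1006 probe sets for olfactory receptors had their mean. All 31 measured genes lay above it in both groups, from *Tm7sf2* at a control mean of 6.42 to *Scd2* at 12.84, although levels of different probe sets cannot be compared with each other. Across probe sets control replicate 1 correlated less with the other controls (r = 0.987 and 0.984) than these did with each other (0.995). Results of some list members and both list medians are given with and without control replicate 1. The array samples are called triplicates, and whether the study's general statement of independent experiments covers them is not given, so each p-value reflects only how these samples spread, which may be technical. Of 10 epithelial markers 6 fell with EMT, among them the keratins *Krt7* (log2 fold change -2.11) and *Krt14* (-2.22) and the cadherin *Cdh1* (-5.09, to a mean of 4.48), while the keratins *Krt8* (12.79 in both groups) and *Krt18* (12.56 and 12.57) did not pass. Of 6 measured adipocyte markers none passed the test, where *Adipoq* lay at 4.72 in both groups and *Lep* below background. The summed level of these 6 lay between 8.35 and 8.94 (log2) in control and between 8.21 and 8.31 in long-term EMT cells. Of 7 fibroblast, 7 macrophage and 5 endothelial markers none passed either. The summed fibroblast level lay between 8.89 and 9.89 in control and between 8.74 and 9.06 in long-term EMT cells. Its member *Dcn* had 7.68, 5.98 and 4.50 in control and 4.44, 4.33 and 4.11 in long-term EMT cells, and *Pdgfra* had 8.96, 8.26 and 7.78 against 7.66, 7.42 and 7.06. Neither overlapped between groups, and both were highest on control replicate 1. In the other direction *Col1a1* had 6.84, 6.44 and 6.58 against 7.50, 7.15 and 7.06, also without overlap. Of the 7 fibroblast log2 fold changes 5 were above 0 and 2 below. The part of other cell types in the results was not tested, and in RNA of whole cultures fewer cells of a type and less RNA per cell cannot be told apart.

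**Figure D1:**
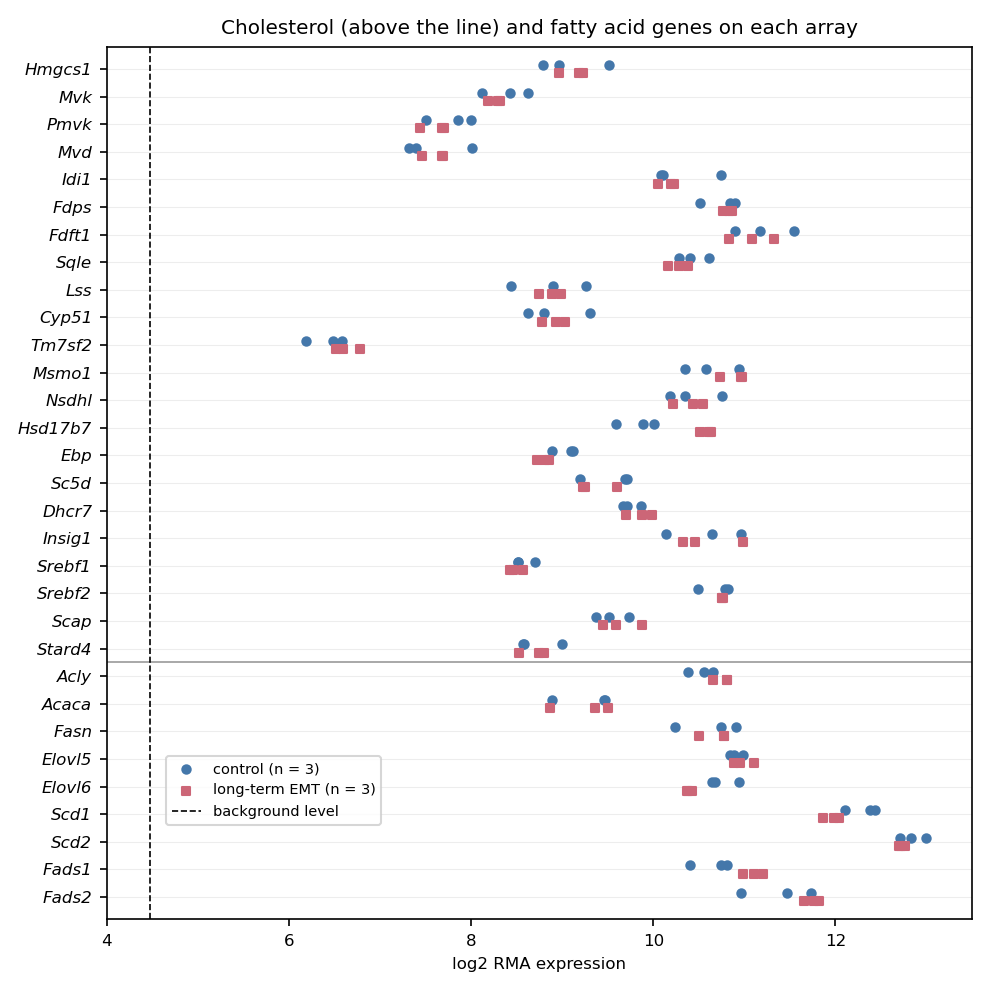
Expression of the 31 measured genes (horizontal axis, log2 RMA value per array), with 3 control arrays as circles and 3 long-term EMT arrays as squares, a gray line between cholesterol and fatty acid genes and a dashed line at background (4.48). All genes lie to the right of that line, and for *Hsd17b7* the squares, from 10.51 to 10.63, lie beyond the circles, from 9.59 to 10.01.

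Of the 31 measured genes 1 passed the test between control and long-term EMT cells. Of all 18820 genes 276 passed as higher and 281 as lower, so the low count is not particular to this pathway. Of the 22 measured cholesterol genes 1 rose (*Hsd17b7*), none fell and 21 did not pass, and of the 9 fatty acid genes none passed. A gene passed at an adjusted p under 0.05 from limma and a fold above 1.5, which 0.993% of all probe sets did as higher and 0.928% as lower in long-term EMT cells. The median log2 fold change (long-term EMT minus control) was 0.01 for the cholesterol genes, 0.06 for the fatty acid genes and 0.02 for all probe sets. At an unadjusted p under 0.05, 2 of the 31 genes were higher (*Hsd17b7* and *Fads1*) and 3 lower (*Ebp*, *Elovl6* and *Scd1*), both by limma and by the methods' t-test, beside 7.30% and 6.23% of all probe sets by limma. The groups did not overlap for the same 5 genes, as they did with long-term EMT above for 10.5% and below for 8.68% of all probe sets. For 21 of the 31 genes the 95% interval of the difference lay within 1.5-fold in either direction, and for the other 10 a change of that size was not excluded.

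**Figure D2:**
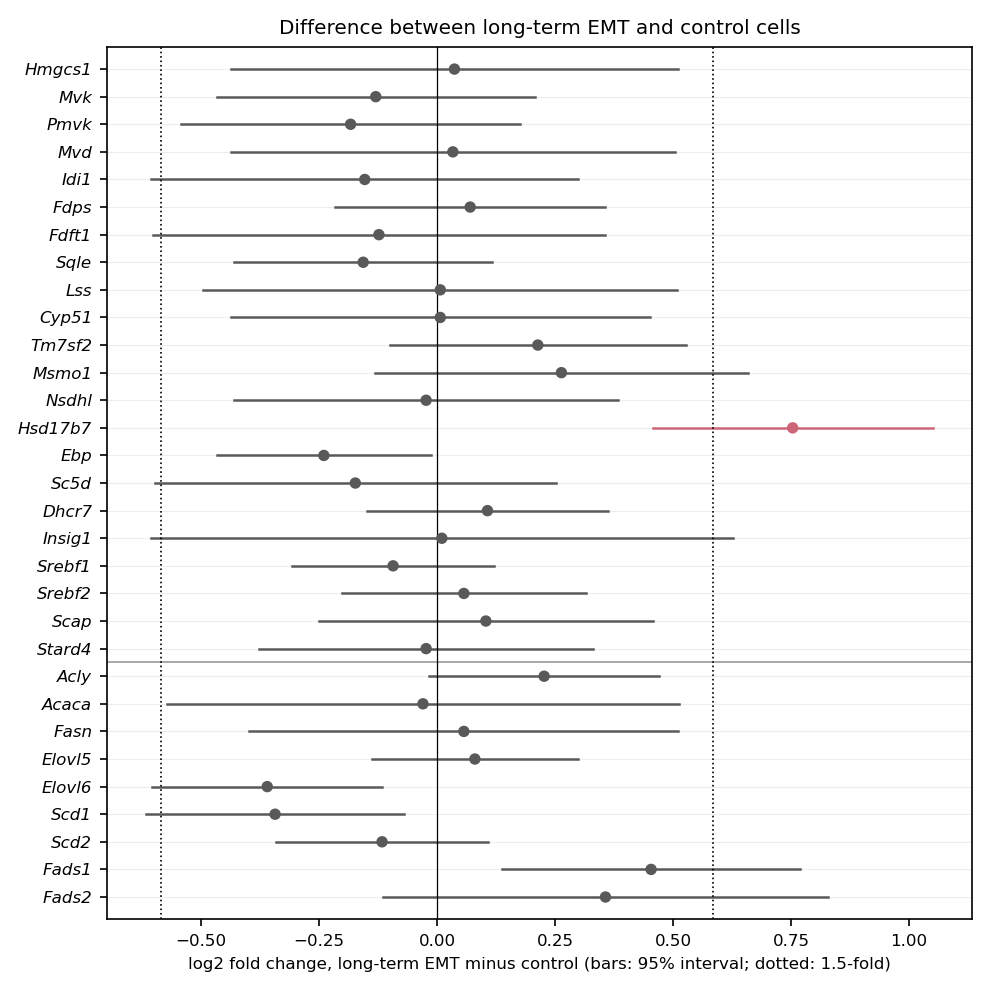
Log2 fold change of each gene, long-term EMT minus control (points), with its 95% interval from limma (bars, n = 3 per group). The dotted lines are a fold of 1.5, *Hsd17b7* is in red, and the gray line parts the cholesterol from the fatty acid genes. The interval of *Hsd17b7* runs from 0.46 to 1.05, and 21 intervals lie between the dotted lines.

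*Hsd17b7* encodes the 3-ketosteroid reductase of the sterol demethylation complex, an enzyme that can also reduce estrone to estradiol. Its log2 values were 9.59, 10.01 and 9.89 in control and 10.61, 10.63 and 10.51 in long-term EMT cells. Every long-term EMT array lay above every control array. The level rose 1.69-fold, or by 0.75 on the log2 scale with a standard error of 0.12 (adjusted p = 0.0378, limma). The difference was 0.63 without control replicate 1, 0.84 without control replicate 2 and between 0.73 and 0.79 without each of the other arrays in turn, but the gene passed in only the first of these 6 fits, with adjusted p between 0.0261 and 0.168. It did not pass with the methods' t-test after Benjamini-Hochberg adjustment (adjusted p = 0.161) either.

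The partners of *Hsd17b7* in removing the methyl groups of lanosterol did not follow it past the test. *Msmo1*, the oxidase that starts each round, had values of 10.58, 10.94 and 10.35 in control and 10.97, 10.96 and 10.73 in long-term EMT cells, so the log2 values differed by 0.26, with a standard error of 0.16 (adjusted p = 0.59). *Nsdhl*, the dehydrogenase that follows, had 10.35, 10.75 and 10.18 against 10.22, 10.55 and 10.44, a difference of -0.02 with a 95% interval from -0.43 to 0.38. For both genes the groups overlapped. *Cyp51*, which removes the first methyl group, differed by 0.01 (interval from -0.44 to 0.45), and *Tm7sf2*, a sterol reductase of the next step, by 0.21 (standard error 0.13, adjusted p = 0.576). Without control replicate 1 *Cyp51* differed by -0.137 and *Tm7sf2* by 0.295.

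*Ebp*, the sterol isomerase that acts after *Hsd17b7*, lay on the other side by value. Its log2 values were 8.89, 9.12 and 9.10 in control and 8.72, 8.86 and 8.81 in long-term EMT cells. The groups did not overlap, but the lowest control array lay just above the highest long-term EMT array. The log2 difference of -0.24, with a standard error of 0.09, did not pass (adjusted p = 0.338). The last enzymes of the pathway, *Sc5d* and *Dhcr7*, had log2 fold changes of -0.17 and 0.11 and overlapped between groups. *Dhcr7*, which makes the final reduction to cholesterol, had one of the narrower spreads among controls, from 9.67 to 9.87.

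None of the enzymes that come before the sterol ring passed the test. *Hmgcs1*, which makes the pathway's first committed precursor, had log2 values of 8.97, 9.51 and 8.79 in control and 9.19, 9.23 and 8.96 in long-term EMT cells, a difference of 0.04 (95% interval from -0.44 to 0.51). The second control array was above all the others. Log2 fold changes of the 6 measured mevalonate genes ran from -0.18 for *Pmvk*, a kinase, to 0.07 for *Fdps*, which makes farnesyl diphosphate. None of the 6 had groups that did not overlap. In 4 of the 6 all long-term EMT arrays lay within the range of the control arrays. *Sqle*, the squalene epoxidase that limits flux late in the pathway, had 10.28, 10.61 and 10.40 against 10.38, 10.16 and 10.28 (log2 fold change -0.16, standard error 0.11, adjusted p = 0.655). *Fdft1* and *Lss*, on either side of it, differed by -0.12 and 0.01, and by -0.14 and -0.21 without control replicate 1.

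The regulators did not differ past the test. *Srebf2*, the main driver of the cholesterol genes, had values of 10.79, 10.82 and 10.49 in control and 10.77, 10.75 and 10.75 in long-term EMT cells, a difference of 0.06 (95% interval from -0.20 to 0.31). *Srebf1*, whose products favor fatty acid genes, had 8.52, 8.70 and 8.52 against 8.46, 8.43 and 8.57, a difference of -0.09 (interval from -0.31 to 0.12). For both, a 1.5-fold change in RNA lay outside the interval. The cut, active proteins were not measured. *Insig1*, itself an SREBP target, spread widely in both groups, with 10.64, 10.96 and 10.14 against 10.46, 10.98 and 10.33. The interval of its difference ran from -0.61 to 0.63, so a 1.5-fold change in either direction was not excluded there. *Scap* and the sterol carrier gene *Stard4* had log2 fold changes of 0.10 and -0.02. The second probe set of *Scap*, of lower signal, had 0.14, and that of *Idi1* had -0.12 beside -0.15.

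Among the fatty acid genes none of the 3 that make palmitate passed. *Fasn*, the fatty acid synthase, had log2 values of 10.24, 10.91 and 10.74 in control and 10.50, 10.78 and 10.78 in long-term EMT cells, a difference of 0.06 (95% interval from -0.40 to 0.51). *Acaca*, the carboxylase that makes malonyl-CoA, differed by -0.03 on its brighter and by 0.09 on its dimmer probe set. Without control replicate 1, the lowest control for both, *Fasn* differed by -0.14 and *Acaca* by -0.22. *Acly*, which splits citrate into acetyl-CoA, had 10.38, 10.66 and 10.56 against 10.66, 10.81 and 10.81 (log2 fold change 0.23, standard error 0.10, adjusted p = 0.412). Its long-term EMT arrays were at or above the highest control, and its difference was 0.15 without control replicate 1.

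The elongases and desaturases spread further by value, in both directions, and none passed. *Fads1*, the delta-5 desaturase of polyunsaturated fatty acids, had 10.40, 10.74 and 10.81 in control and 10.99, 11.21 and 11.11 in long-term EMT cells. Long-term EMT arrays were all above control arrays (log2 fold change 0.45, standard error 0.13, adjusted p = 0.187). *Fads2*, the delta-6 desaturase, had 10.96, 11.73 and 11.47 against 11.65, 11.76 and 11.82 (0.36, standard error 0.20, adjusted p = 0.525), and its groups overlapped. Without control replicate 1, the lowest array for both, these differences were 0.33 and 0.14. In the other direction, *Elovl6*, which lengthens palmitate, had 10.68, 10.94 and 10.64 in control and 10.37, 10.43 and 10.38 in long-term EMT cells. All long-term EMT arrays were below all control arrays (log2 fold change -0.36, standard error 0.10, adjusted p = 0.176). *Scd1*, the main stearoyl-CoA desaturase, had 12.43, 12.38 and 12.10 against 11.98, 12.04 and 11.86, also without overlap (-0.34, standard error 0.11, adjusted p = 0.25). Its close relative *Scd2* had 12.71, 12.99 and 12.83 against 12.70, 12.76 and 12.72 (-0.12, standard error 0.09, adjusted p = 0.695), and whether the probes tell these sequences apart was not tested. *Elovl5*, which lengthens polyunsaturated chains, differed by 0.08 (95% interval from -0.14 to 0.30). *Elovl6* and *Scd1* were lower by 0.40 and 0.28 without control replicate 1.

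The members varied most within the control group, and did so together. *Idi1*, the isomerase of the isoprenoid unit, had 10.11, 10.74 and 10.09 on control replicates 1 to 3, *Mvd*, a decarboxylase, 7.32, 8.01 and 7.40, and *Lss*, the lanosterol synthase, 8.44, 9.26 and 8.90. In each the second control array was the highest. It was so for 20 of the 22 cholesterol genes (90.9%) and 7 of the 9 fatty acid genes (77.8%), beside 20.4% of the 12885 genes above background in both groups. The exceptions were *Tm7sf2*, *Scap*, *Scd1* and *Fads1*. This array lay a median of 0.41 (log2) above control replicate 3 over the cholesterol genes and 0.16 over the fatty acid genes, beside 0 over all genes above background. Over the mevalonate genes the median was 0.55. All 6 mevalonate genes, 10 of 11 squalene and sterol genes and all 3 palmitate genes were highest on it. This pattern was noticed in the data and is given as a description, since members of a pathway are not independent and 1 array is behind it. Among long-term EMT arrays replicate 2 was highest for 11 of the 22 cholesterol genes and replicate 1 for 9, beside 3708 and 3990 of the 12885. There replicate 2 lay a median of 0.105 above replicate 3 over the cholesterol genes, beside -0.01, and 0.025 above replicate 1, beside 0.02.

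**Figure D3:**
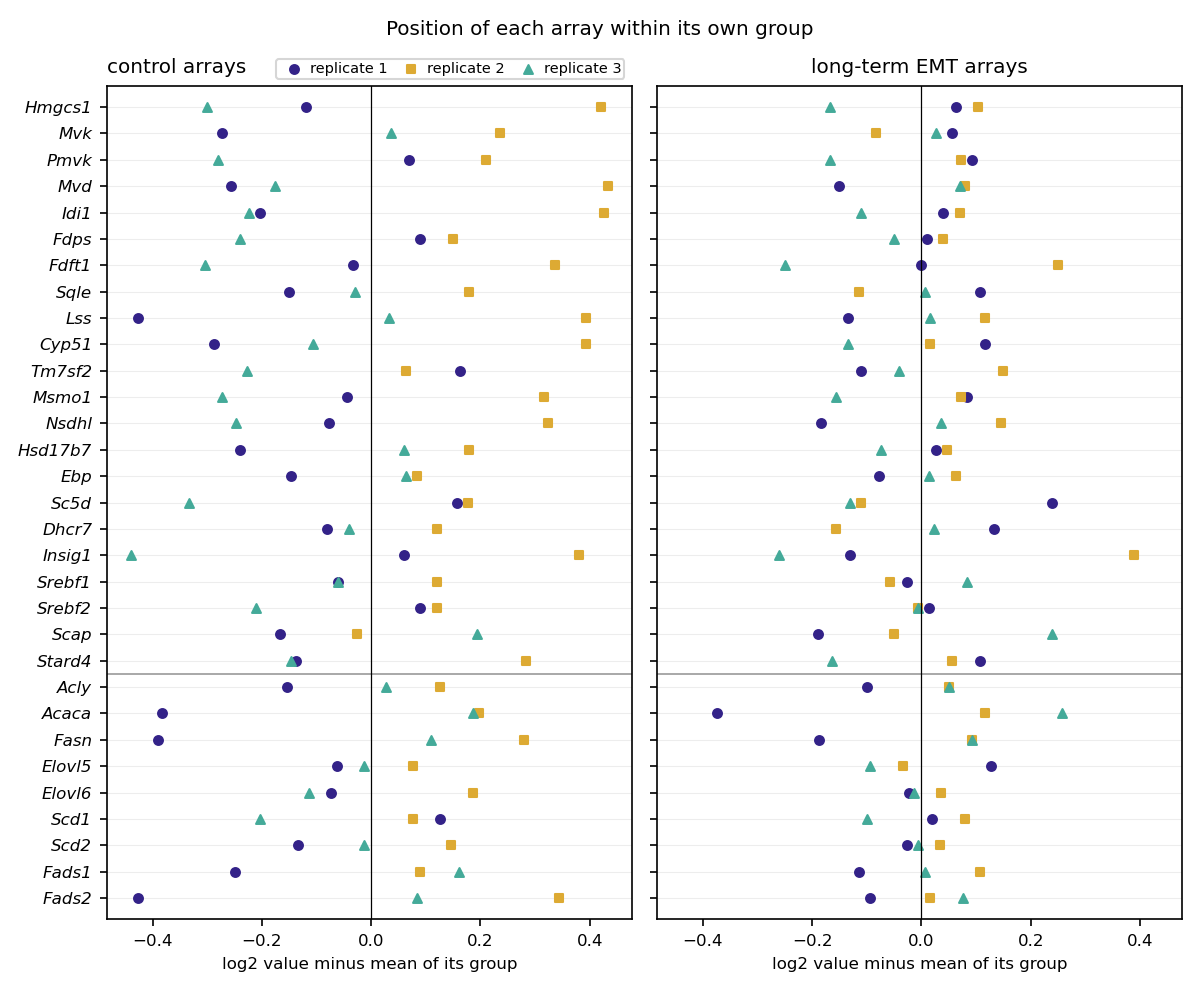
Log2 value of each gene on each array minus the mean of that array's group, for control (left) and long-term EMT arrays (right), with replicates 1 (circles), 2 (squares) and 3 (triangles). In control cells the squares lie on the right for most genes, and the points of the long-term EMT arrays lie closer together.

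Long-term EMT arrays were more alike for these genes. The standard deviation was larger among control than among long-term EMT arrays for 20 of 22 cholesterol genes (medians 0.25 and 0.13) and for 8 of 9 fatty acid genes (0.18 and 0.09). Over all genes above background it was larger for 65.7%, with medians of 0.16 and 0.12. Against the mean of all 6 arrays the cholesterol genes lay at a median of -0.10, 0.28 and -0.19 on the control arrays and within 0.03 of 0 on each long-term EMT array. The sign of the list medians changed with the arrays kept. Without control replicate 2 the median log2 fold change of the cholesterol genes was 0.13, without control replicates 1 and 3 it was -0.09 and -0.10, and leaving out a long-term EMT array gave 0.02 for replicate 1, -0.05 for replicate 2 and 0 for replicate 3. For the fatty acid genes it was -0.14 without control replicate 1, 0.12 without control replicate 2, 0.15 without long-term EMT replicate 1 and between 0.01 and 0.07 without each of the others. What set control replicate 2 apart for this pathway was not tested.

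**Figure D4:**
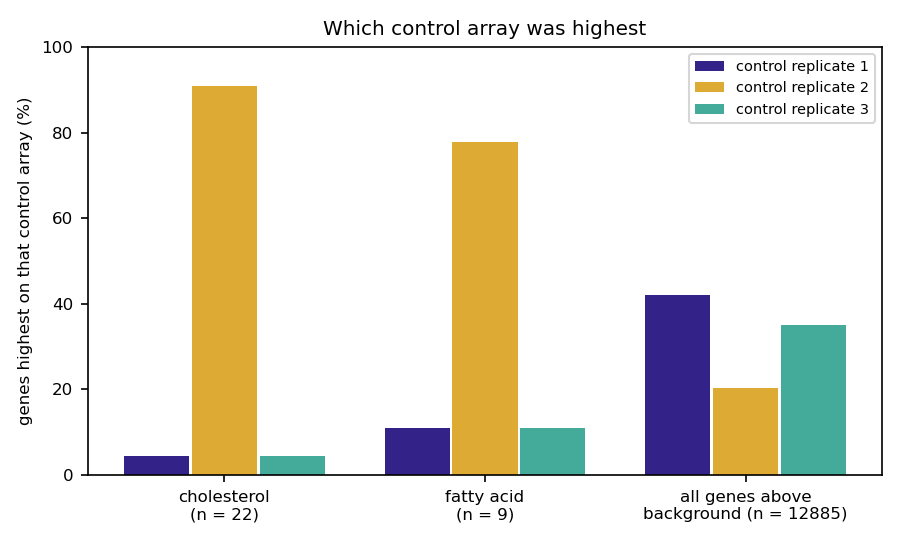
Share of genes (vertical axis, percent) that were highest on control replicate 1, 2 or 3, for the 22 cholesterol genes, the 9 fatty acid genes and the 12885 genes above background. Control replicate 2 holds 90.9% and 77.8% of the members and 20.4% of all genes.

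Genes around the pathway were read from 6 further lists, with 85 measured genes, of which 2 rose and 2 fell. Of 15 genes of sterol uptake, storage and efflux, 2 rose and 1 fell. *Osbp2*, a sterol-binding protein, had log2 values of 5.50, 5.34 and 5.34 in control and 8.32, 7.51 and 7.62 in long-term EMT cells, with no overlap (log2 fold change 2.42, standard error 0.22, adjusted p = 0.00596), and passed without each array in turn. *Lrp1*, an endocytic receptor for lipoproteins among many ligands, rose from 10.59, 10.63 and 10.81 to 11.18, 11.44 and 11.48 (0.69, standard error 0.11, adjusted p = 0.0387), but passed in none of the 6 fits that left out an array (adjusted p from 0.0527 to 0.172). *Vldlr*, the receptor of very low density lipoprotein, fell from 8.71, 7.99 and 7.54 to 6.51, 6.38 and 6.41 (-1.65, standard error 0.28, adjusted p = 0.0434), and passed again only without control replicate 1 (-1.33) or 3 (-1.92). *Abca1*, the cholesterol exporter, named after its values were seen, had 7.94, 6.91 and 6.73 against 5.53, 5.60 and 5.61 (-1.61, standard error 0.31, adjusted p = 0.0618), without overlap, and passed only without control replicate 1 (-1.24, adjusted p = 0.00407). Control replicate 1 was the highest control for 11 of these 15 genes (73.3%), beside 42% of all genes above background. The oxysterol receptor gene *Nr1h3*, close to background, had a log2 fold change of -0.09.

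Of 15 other elongase and desaturase genes 1 fell. This was *Elovl7*, an elongase of long saturated chains, with 9.04, 8.37 and 8.03 in control and 6.82, 6.58 and 6.78 in long-term EMT cells (log2 fold change -1.75, standard error 0.25, adjusted p = 0.0260), and it passed again only without control replicate 1 (-1.47) or 3 (-1.98). None of 12 measured genes of SREBP processing passed. *Sec24d*, a coat protein of vesicles that leave the endoplasmic reticulum, had 9.37, 9.25 and 9.17 in control and 9.82, 9.74 and 9.73 in long-term EMT cells (0.50, standard error 0.08, adjusted p = 0.0412) and missed only the fold. Its partner *Sec23a* had 10.14, 9.96 and 9.83 against 10.39, 10.61 and 10.53 (0.53, standard error 0.11, adjusted p = 0.0778). Both were higher on every long-term EMT array than on any control, and both are named after their values were seen. *Mbtps1*, the first protease that cuts the SREBPs, differed by -0.10, and *Insig2*, the relative of *Insig1*, had 10.82, 10.39 and 10.33 against 10.29, 10.05 and 9.90 (-0.43, standard error 0.17, adjusted p = 0.327). None of 13 other SREBP-linked lipogenic genes passed either. Among them *Acss2*, *Me1* and *Slc25a1*, which supply acetyl-CoA, NADPH and citrate, had log2 fold changes of -0.12, -0.02 and 0.08, and *Mlxipl*, a glucose-responsive regulator close to background, -0.04. Of 11 genes of the isoprenoid branch and 19 of fatty acid activation, glycerolipids and oxidation none passed. In the last list *Acsl5* (-0.58, adjusted p = 0.0332) and *Agpat2* (-0.56, adjusted p = 0.0404) missed only the fold, as did the lipoprotein receptor *Scarb1* (0.46, adjusted p = 0.0460) among the uptake genes. All of these are named after their values were seen. The list of activation, glycerolipids and oxidation had a median log2 fold change of -0.28, beside 0.02 over all probe sets. Of its 19 values 16 were below 0, beside 15849 of all 35556 probe sets. Control replicate 1 was the highest control for 11 of these 19 genes (57.9%), beside 42% of all genes above background. The median without that array was not computed. In these 6 lists control replicate 2 was the highest control for between 0% and 53.8% of the genes, the most in the SREBP-linked lipogenic list.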

How the data were processed

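Total RNA of 3 control and 3 long-term EMT samples was hybridized to MoGene-1_1-st-v1 arrays. The authors computed log2 values with the RMA algorithm (Affymetrix Expression Console per the labels, version not given in the sources used here) and deposited them for 35556 probe sets. The quantile step of RMA gives arrays near-equal distributions, so only changes relative to other genes are seen. No further normalization was done. Probe sets were named through the platform annotation, in which 21218 have 1 gene symbol, and each gene was taken from its brightest such probe set by mean over the 6 arrays. Groups were compared across all probe sets with limma 3.58.1 in R 4.3.3 (lmFit, eBayes), with Benjamini-Hochberg adjustment, calling probe sets with adjusted p under 0.05 that changed over 1.5-fold. The fit was tested on simulated data. Genes named are all members, the called genes of the 6 further lists (at most 4 each) and a few regulators and suppliers. *Abca1*, *Sec24d*, *Sec23a*, *Acsl5*, *Agpat2* and *Scarb1* were added after their values were seen. Members and lists were chosen with earlier results of these data known. Alternatives covered the test, thresholds, scaling, dim probe sets, probe set choice, a replicate block and each array left out. Protein sequences and proteins themselves were not analysed here.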

Additional observations from a re-analysis of the deposited data

How the results depend on the processing

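The number of arrays limits the precision. The count of 1 cholesterol gene that rose became 0 with the methods' t-test after Benjamini-Hochberg adjustment, with a fold above 2, with the replicate number as a block (adjusted p = 0.0775 for *Hsd17b7*) and on leaving out any array but control replicate 1, so that it ran from 0 to 1, with fewer samples in each such fit. It stayed at 1 with the unadjusted t-test, a trended and robust prior, no fold threshold, both other scalings, dim probe sets left out and the mean of all probe sets. No member fell and no fatty acid gene passed under any of these. The median log2 fold change of the fatty acid genes ran from -0.14 to 0.15 with 1 array left out. Over 310 single values with all arrays kept, 4 of genes that did not pass changed sign. Of these settings only the other scalings and the mean of all probe sets can alter a fold change, so most of the 310 could not change sign. Over 186 values with 1 array left out 30 did. Same-numbered samples deviated together at r = 0.188, 0.0203 and 0.249 across probe sets, so the numbers were not taken as pairs. Control replicate 2 stayed the highest control for 18 to 20 cholesterol genes and for 7 fatty acid genes under the other scalings, a check chosen after the data were examined.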
